A study of Homo sapiens with 4 samples.

Results

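The MAX network is the set of transcription factors that pair with MAX or with its relative MLX. Its 10 members described here are MYC, MAX, MXI1, MXD1, MXD3, MXD4, MNT, MGA, MLX and MLXIP. They were chosen by gene symbol, and all 10 were found among the 55765 symbols of the deposited count table. The study sequenced RNA of SK-N-BE(2)C, a long-established human neuroblastoma line whose MYCN gene is amplified. Cells received 10 µM ATRA (all-trans retinoic acid, the active acid form of vitamin A) or ethanol, its solvent, for 144 h. There were 2 libraries per group, called ATRA 1 and 2 and ethanol 1 and 2, where library 2 is the one with that number in its title. All 4 came from the same line, and whether the libraries of a group were separate cultures is not given in the labels, so the spread between them may be technical.

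MYC and its paralogs MYCN and MYCL act only when paired with MAX, and the pair activates genes by binding the DNA hexamer CACGTG, the canonical E-box. MXD1, MXI1, MXD3, MXD4 and MNT pair with MAX in place of MYC, bind the same hexamer and recruit the SIN3 corepressor with its histone deacetylases. MGA pairs with MAX inside a Polycomb complex named PRC1.6. MLX is a second hub, whose partners include MXD1, MXD4, MNT and the glucose-sensing factor MondoA, encoded by MLXIP. In neuroblastoma with amplified MYCN, MYCN is usually the MYC protein in use and MYC is little expressed.

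The E-box is also found near the start of some of the genes that encode the network. RefSeq promoter windows (GRCh38.p14, from 250 bases before to 50 bases after an annotated start) were matched by symbol for 9 members, with 14 windows in all. Windows on the chromosome of MYC were left out of the search for members, though not of the count over all windows. MYC was thus not among the 9, and the motif counts of members do not cover it. The hexamer CACGTG, which reads the same on both strands, was in the windows of 3 of these 9 members, MXD4, MNT and MLX. Each of the 3 has 1 window in the set. Over all 35116 windows the share was 7.26%, counted by window and not by gene, and enrichment was not tested. These 3 stretches are shown because they hold the site that the network's proteins bind; capitals mark the hexamer, and each is 5′ to 3′ on the strand of its gene.
MXD4: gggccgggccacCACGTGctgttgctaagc
MNT: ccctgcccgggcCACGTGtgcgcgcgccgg
MLX: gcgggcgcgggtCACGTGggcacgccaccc

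The hexamer starts 238, 193 and 50 bases before the annotated start of MXD4, MNT and MLX. The stretches lie at chr4:2262330-2262359 (minus strand), chr17:2401236-2401265 (minus strand) and chr17:42567038-42567067 (plus strand). MXD3, the member with the smallest p-value below, had no CACGTG in its window. Its 250 bases before the start (chr5:177312753-177313002, minus strand) hold a single AGGTCA, in capitals here. AGGTCA is a single copy of the unit whose paired form was searched as a site of retinoic acid receptors. A single copy is not read here as such a site.
MXD3: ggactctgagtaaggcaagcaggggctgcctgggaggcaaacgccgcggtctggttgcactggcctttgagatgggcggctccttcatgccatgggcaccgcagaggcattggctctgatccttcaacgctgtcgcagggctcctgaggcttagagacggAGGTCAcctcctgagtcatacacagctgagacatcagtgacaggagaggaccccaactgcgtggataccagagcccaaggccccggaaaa

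AGGTCA, searched on both strands, was in 13.8% of all windows and in that of 1 member. The paired form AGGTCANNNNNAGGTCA was in 0 of the 14 windows of members and in 0.0057% of all windows. The hexamers CACGCG and CATGTG were searched too. CACGCG was in windows of 3 members, MXD3, MXI1 and MGA, and in 11.4% of all windows. In the MXD3 window it lies after the annotated start, outside the bases shown. CATGTG was in windows of 0 members and in 11.1% of all windows. A match is a description of the letters and not evidence of binding.

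Total counts ran from 12850462 to 19883465 per library. The share of mitochondrial ribosomal RNA was 2.49% and 5.96% in the libraries numbered 1 and 0.130% and 0.0291% in those numbered 2, and protein-coding genes took 75.8% against 86.9%, so differences within each number are given beside the fitted ones. Adrenergic markers of the line (8 genes) summed to between 1143 and 1462 CPM (read counts scaled to library size). Among markers of other cell types, the leukocyte list summed to 20.6 and 7.12 CPM with ATRA and to 3.54 and 1.78 CPM with ethanol, most of it CD14, with CD68 and LYZ at 0 reads in every library. The fibroblast list ranged from 134 to 553 CPM with overlapping groups. Of its 5 tested genes, 2 had a log2 difference (ATRA over ethanol) above 0 and 3 below, with COL1A1 at 5.26 and LUM at -2.22. The epithelial list summed to 8.06 and 12.1 CPM with ATRA and 2.00 and 2.03 CPM with ethanol. Most of its ATRA level was KRT8 and KRT18, while EPCAM overlapped between groups and CDH1, KRT5 and KRT14 had at most 1 read per library. The endothelial list summed to at most 1.02 CPM. The Schwann cell list summed to 17.9 and 22.4 CPM with ATRA and 7.93 and 12.4 CPM with ethanol. SOX10 and ERBB3 of that list overlapped between groups. The part of these markers in the results below was not tested.

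Does ATRA change the balance between MYC proteins and their antagonists? At the mRNA level no member passed the test across all genes with group as the sole term. MYC and MXD3 passed, as did 21.7% of all genes, when the library number, which parts the libraries by ribosomal RNA, was added as a block in edgeR, and DESeq2 with that block called both and 14.4% of all genes. The labels do not say that this number pairs libraries. The clearest values were more MYC mRNA, from next to nothing, and MXD3 mRNA at 0.475 times its ethanol level, while the log2 differences of the other 8 members lay between -0.38 and 0.25. In numbers, 0 of 10 members were called by edgeR's quasi-likelihood test (adjusted p under 0.05), against 0.698% of the 18900 genes tested (0.545% higher and 0.153% lower). At an unadjusted p under 0.05, 1 member was higher (MYC) and 1 lower (MXD3), against 15.9% of all genes (9.43% higher and 6.49% lower). Groups did not overlap for 4 members, of which MYC and MXD1 were above and MXD3 and MLX below, and over all genes this held for 45.5% (23.8% above and 21.7% below), so the share among members was near the background. All 10 passed the filter on low counts. The median log2 difference of the 10 was 0.18, beside 0.01 over all genes tested. With 2 libraries against 2, an exact permutation test of a single gene cannot give a two-sided p below 0.333. In bulk RNA, fewer cells with a transcript and less RNA per cell cannot be told apart.

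**Figure D1:**
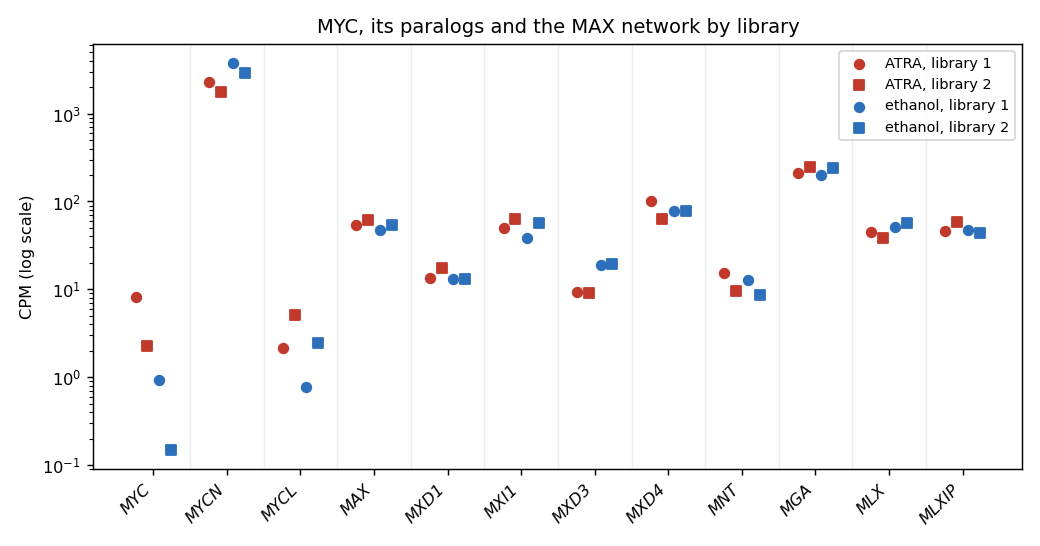
Level of each member and of MYCN and MYCL in each library, in CPM on a log axis; red is ATRA, blue is ethanol, circles are libraries 1 and squares libraries 2. MYC lies at 8.13 and 2.27 CPM with ATRA and below 1 CPM with ethanol, and MXD3 near 9 CPM with ATRA and 19 with ethanol; CPM is not corrected for length, so points compare within a gene.

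MYC, the founding oncogene of the family, was counted 120 and 38 times in the ATRA libraries and 12 and 3 times in the ethanol libraries. This is 8.13 and 2.27 CPM with ATRA against 0.924 and 0.149 CPM with ethanol. Both ATRA libraries lay above both ethanol libraries, and in each group library 1 was several times higher than library 2. The fitted log2 difference was 3.33 ± 1.05 (SE), a 10.1-fold higher level, with a 95% interval from 0.76 to 5.90 and an adjusted p of 0.203 (edgeR quasi-likelihood). Within libraries 1 the log2 difference was 2.98 and within libraries 2 it was 3.14. The ratio of scaled counts was 11.1, with an exact 95% counting interval of 6.53 to 20.3 that covers counting error only.

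The call and the size of the MYC difference changed with the method and with the libraries kept. DESeq2 called it (adjusted p 0.0160; DESeq2 called 7.3% of all genes), as did edgeR with no filter on low counts (0.000402; 4.88% called), without ATRA 2 (0.00108; 6.96% called) and without ethanol 1 (0.00420; 4.35% called). The log2 difference was 3.98 without ATRA 2 and 5.02 without ethanol 1. Without ATRA 1 the log2 difference was 2.14 with an adjusted p of 0.434 (edgeR quasi-likelihood), and without ethanol 2 it was 2.49 with 0.0702. Limma-voom did not call it either (adjusted p 0.227).

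Among the MYC paralogs, MYCN mRNA had 2319 and 1778 CPM with ATRA and 3739 and 2910 CPM with ethanol, which gave a log2 difference of -0.70 ± 0.31 and no call with group as the sole term (edgeR quasi-likelihood, adjusted p 0.345). With the library number as a block MYCN was called lower (edgeR quasi-likelihood, adjusted p 0.0291). Exons of MYCN overlap those of MYCNOS on the other strand over 98 bases, and MYCNOS was at -0.95 ± 0.46. The part of MYCNOS in the MYCN counts was not tested. MYCL was counted 32 and 86 times with ATRA and 10 and 49 times with ethanol, and its groups overlapped. Its log2 difference was 1.17 ± 0.77, with an interval from -0.70 to 3.04. Per kilobase of the longest protein-coding transcript, MYC made up 0.384% and 0.140% of the summed MYC, MYCN and MYCL level in the ATRA libraries and 0.0272% and 0.00561% in the ethanol libraries. MYC was thus higher in its share in both ATRA libraries, yet MYCN remained nearly all of the MYC family mRNA in all 4 libraries.

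MAX, the obligate partner, was at 53.6 and 61.3 CPM with ATRA and 47.6 and 53.9 CPM with ethanol, and the groups overlapped. Its log2 difference was 0.18 ± 0.24, with an interval from -0.41 to 0.76, and it was 0.17 and 0.18 within libraries 1 and 2. The interval thus leaves room for a level up to about 1.7 times higher or 1.3 times lower. Per kilobase, the ratio of MYCN to MAX mRNA was 52.5 and 35.2 with ATRA and 95.3 and 65.4 with ethanol, so MYCN mRNA exceeded that of its partner in every library, and the ratio was lower in both ATRA libraries than in either ethanol library. Protein levels were not measured.

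**Figure D2:**
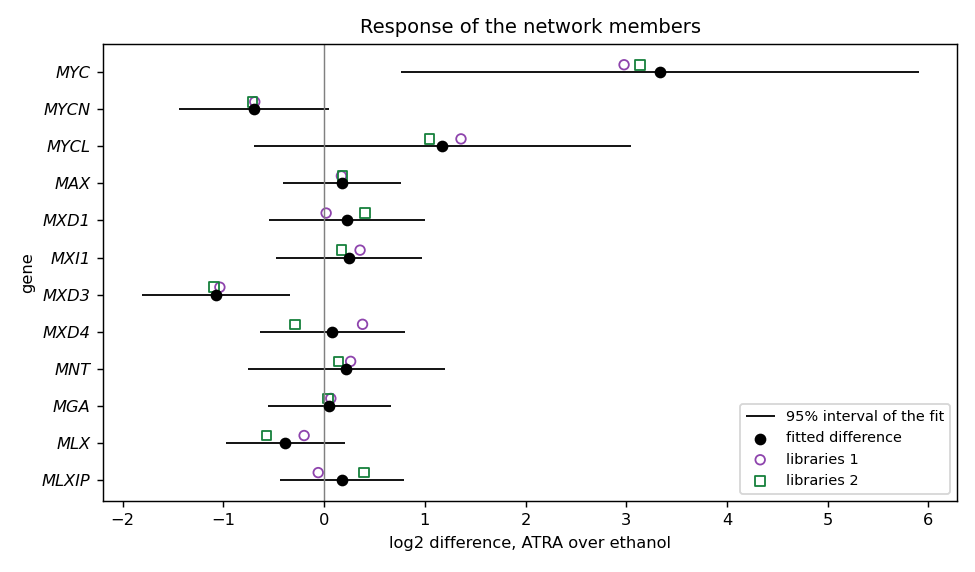
Fitted log2 difference of ATRA over ethanol for each gene (black points) with its 95% interval (lines), and the differences within libraries 1 (circles) and within libraries 2 (squares). Among the 10 members the intervals of MYC (0.76 to 5.90) and MXD3 (-1.81 to -0.34) do not span 0, although neither passes once adjusted over all genes.

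Of the MXD repressors, MXD3 had the lowest log2 difference. MXD3, the family member associated with proliferating cells, had 9.21 and 8.97 CPM with ATRA and 19.0 and 19.3 CPM with ethanol. Libraries of a group nearly coincided and the groups lay far apart. The log2 difference was -1.07 ± 0.30, with an interval from -1.81 to -0.34 and an adjusted p of 0.165 (edgeR quasi-likelihood). It was -1.04 and -1.09 within libraries 1 and 2, and between -1.13 and -1.05 under every alternative run, limma-voom and DESeq2 included. Exons of MXD3 overlap those of RAB24 on its own strand over 926 bases in GENCODE 29. They overlap those of PRELID1 on the other strand over 1158 bases. All exons of MXD3 joined span 5154 bases, and the strand setting of the counting is not given. RAB24 was at -0.40 ± 0.68, with an interval from -2.06 to 1.27, and PRELID1 at -0.28 ± 0.45, with an interval from -1.39 to 0.83. Their part in the MXD3 counts was not tested.

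The genes whose pattern over the 4 libraries was nearest to that of MXD3, out of 11707 protein-coding genes with a mean log2 CPM of at least 1, were COMMD8, SKP2 and DIAPH3. Their distances in centred log2 CPM were 0.0673, 0.0699 and 0.0816, and their log2 differences were -1.06, -1.10 and -1.03. COMMD8 encodes a COMM domain protein, SKP2 the substrate receptor of an SCF ubiquitin ligase, and DIAPH3 an actin-nucleating formin. With 4 libraries such likeness is only a description.

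MXD1, a repressor known to be induced as cells differentiate, had 13.3 and 17.6 CPM with ATRA and 13.2 and 13.2 CPM with ethanol. The lower ATRA library was almost level with the ethanol libraries. Its log2 difference was 0.23 ± 0.32, with 0.02 within libraries 1 and 0.41 within libraries 2. Exons of MXD1 overlap those of SNRNP27 on its own strand over 237 bases, and SNRNP27 was at 0.21 ± 0.40. The part of SNRNP27 in the MXD1 counts was not tested. MXI1 was at 49.3 and 63.4 CPM with ATRA and 38.5 and 56.3 CPM with ethanol. Groups overlapped, and in both groups library 2 was higher. The log2 difference of MXI1 was 0.25 ± 0.30, with an interval from -0.48 to 0.97.

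MXD4, also a repressor of cells that leave the cycle, had 101 and 63.9 CPM with ATRA, on either side of the 77.4 and 78.1 CPM with ethanol. The log2 difference was 0.08 ± 0.29, and its sign differed within libraries 1 (0.38) and libraries 2 (-0.29). Summed per kilobase, the 4 MXD genes reached 43.3 ± 3.11 (SD, n = 2) CPM per kb with ATRA and 43.6 ± 3.85 (SD, n = 2) with ethanol. The lower MXD3 level was therefore not seen in the sum, where MXD4 and MXI1 hold most of the level.

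MNT, the broadly expressed antagonist of MYC, had 15.2 and 9.63 CPM with ATRA and 12.6 and 8.72 CPM with ethanol. Groups overlapped, and library 1 was the higher one in both. Its log2 difference was 0.22 ± 0.40, with the widest interval among the antagonists (-0.76 to 1.20). MGA, the giant scaffold that carries both a T-box and a helix-loop-helix domain, had 209 and 248 CPM with ATRA and 200 and 242 CPM with ethanol. Its log2 difference was 0.05 ± 0.25, with an interval from -0.56 to 0.66, and 0.07 and 0.04 within libraries 1 and 2. MGA had the smallest difference of the 10 members.

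In the MLX arm, MLX had 45.2 and 38.5 CPM with ATRA and 51.9 and 57.3 CPM with ethanol. Both ATRA libraries were lower, with a log2 difference of -0.38 ± 0.24 and an interval from -0.98 to 0.21 (adjusted p 0.536, edgeR quasi-likelihood). Exons of MLX overlap those of PSMC3IP on the other strand over 770 bases. PSMC3IP was at 5.35 and 12.1 CPM with ATRA and 17.2 and 21.5 CPM with ethanol. Its part in the MLX counts was not tested. MLXIP, which encodes MondoA, had 45.6 and 58.2 CPM with ATRA and 47.5 and 44.2 CPM with ethanol, with overlapping groups and a log2 difference of 0.18 ± 0.25. MLXIPL, which encodes the related factor ChREBP, had 0 and 4 reads with ATRA and 6 and 2 with ethanol and did not pass the filter on low counts.

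Levels of different members compare only per length. In the ethanol libraries the order, in CPM per kb of the longest protein-coding transcript, was MLX (21.1 ± 1.49, SD, n = 2), MXD4 (19.2 ± 0.134), MAX (16.1 ± 1.42), MGA (15.3 ± 2.06), MXI1 (13.7 ± 3.63), MXD3 (8.44 ± 0.0806), MLXIP (5.44 ± 0.277), MXD1 (2.36 ± 0.00819), MNT (2.14 ± 0.553) and MYC (0.227 ± 0.232). MAX, MGA and MXI1 overlapped between libraries, as did MXD1 and MNT, so their order is not resolved. The rest of the order also holds only for the length chosen. All exons joined span 7058 bases for MXD4, against 4056 for its longest transcript, and 4430 against 3155 for MAX. An order by joined exons is not given here. In the ATRA libraries MYC reached 2.20 ± 1.75 (SD, n = 2) CPM per kb, with 1 library above and 1 below both libraries of MNT (2.48 ± 0.784) and of MXD1 (2.77 ± 0.537), so their order is not resolved, and MXD3 was at 4.01 ± 0.0744, below MLXIP at 6.16 ± 1.06.

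Shares of the 10 members did not overlap between groups for MXD3, MLX, MYC and MAX. In CPM, groups did not overlap for 45.5% of all genes tested, so such separation is not read as a result about the members. As shares of their summed CPM per kb, MXD3 took 3.82% and 3.86% with ATRA and 8.51% and 7.77% with ethanol. MLX took 16.4% and 14.6% with ATRA and 20.4% and 20.3% with ethanol, and MYC took 3.23% and 0.939% against 0.397% and 0.0574%. MAX took 15.97% and 18.97% with ATRA and 15.3% and 15.6% with ethanol, a narrow gap, and its groups overlapped in CPM. The summed level itself was 104 ± 2.78 CPM per kb (SD, n = 2) with ATRA and 104 ± 7.75 with ethanol. Shares sum to a fixed total, so a lower share of a gene raises those of others.

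**Figure D3:**
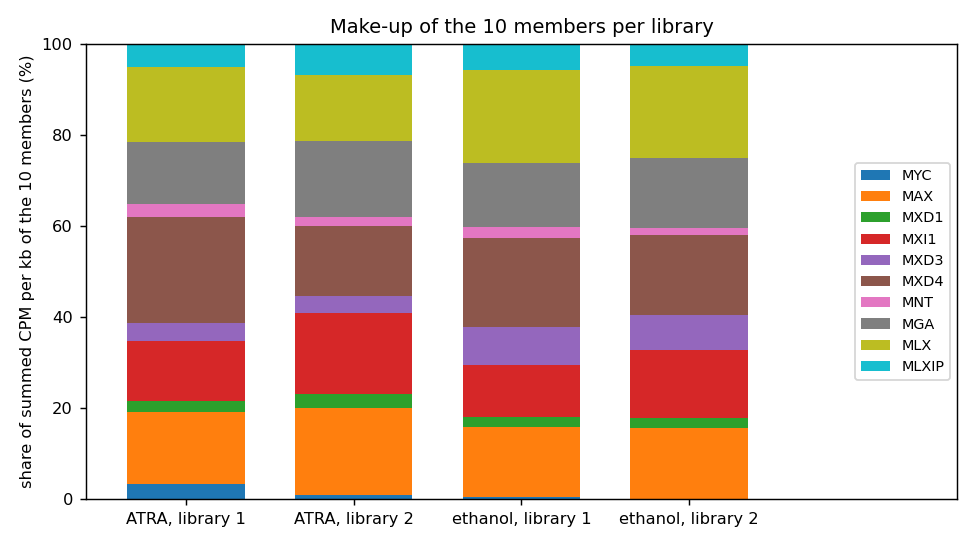
Share of each of the 10 members in their summed CPM per kilobase, one bar per library, in percent. The MXD3 segment is 3.82% and 3.86% in the ATRA bars and 8.51% and 7.77% in the ethanol bars; MXD4, MAX, MGA and MXI1 make up most of every bar together with MLX.

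Cofactors of the network showed mostly small differences. Of 17 cofactors and chromatin partners of MYC, 0 were called, with a median log2 difference of -0.10. At an unadjusted p under 0.05, 0 were higher and 1 lower (9.43% and 6.49% of all genes). WDR5, a histone methyltransferase subunit that binds MYC, was at -0.64 ± 0.24, and RUVBL1, a helicase of the TIP60 complex, at -0.58 ± 0.26. TRRAP, the scaffold that recruits acetyltransferases to MYC, was at -0.10 ± 0.25. Of 17 genes of the SIN3 and histone deacetylase corepressor 0 were called and 0 had an unadjusted p under 0.05 (median -0.15). ING2 was at -0.97 ± 0.51 and RBBP7 at -0.55 ± 0.31, while the scaffolds SIN3A and SIN3B, which the MXD proteins bind, were at -0.36 ± 0.35 and 0.54 ± 0.31.

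Of 16 genes of the PRC1.6 complex around MGA, 0 were called (median -0.07). At an unadjusted p under 0.05, 3 were lower, beside 6.49% of all genes. TFDP1, the dimer partner of E2F factors, had 72.5 ± 8.51 CPM with ATRA and 136 ± 15.5 CPM with ethanol (SD, n = 2). Its log2 difference was -0.91 ± 0.25, and PCGF6, the subunit that defines this complex, was at -0.84 ± 0.29. The third was WDR5, which stands in both lists.

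Among genes that control the stability of MYC proteins, SKP2 and USP28 had the smallest p-values. Of 20 genes 0 were called (median -0.16). At an unadjusted p under 0.05, 3 were lower, beside 6.49% of all genes. SKP2, which marks MYC for degradation, had 151 and 145 CPM with ATRA and 305 and 328 CPM with ethanol, a log2 difference of -1.10 ± 0.23 (adjusted p 0.0982, edgeR quasi-likelihood). USP28, a deubiquitinase that counters FBXW7, was at -1.14 ± 0.25 (adjusted p 0.107, edgeR quasi-likelihood). AURKA, a mitotic kinase that shields MYCN from degradation, was at -1.48 ± 0.38. The ubiquitin ligase receptor gene FBXO32 was at 1.78 ± 0.74, with 8.53 and 2.33 CPM with ATRA and 1.77 and 1.39 CPM with ethanol. AURKA and FBXO32, the 2 largest differences of the list, were named after their values were seen. FBXW7 itself, the ubiquitin ligase receptor for phosphorylated MYC, was at -0.06 ± 0.23.

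Targets showed the broadest differences. Of 34 measured genes that MYC proteins are known to activate, 33 lay below 0, 30 did not overlap between groups in that direction (21.7% of all genes), and 0 were called by edgeR. At an unadjusted p under 0.05, 15 were lower and 0 higher (6.49% and 9.43% of all genes). The median log2 difference was -0.61, with -0.58 within libraries 1 and -0.65 within libraries 2, beside 0.01 over all genes. FBL, the ribosomal RNA methyltransferase fibrillarin, had 52.2 ± 6.74 CPM with ATRA and 124 ± 41.1 CPM with ethanol (SD, n = 2) and a log2 difference of -1.25 ± 0.31. NOP56, its partner in small nucleolar ribonucleoproteins, was at -0.75 ± 0.23. The exception was TFRC, the transferrin receptor, at 0.35 ± 0.26. DESeq2 called 1 gene of the list lower (503 of all genes) and limma-voom 0 (7 of all genes). With the library number as a block, edgeR called 21 lower (9.38% of all genes were called lower in that fit). DESeq2 with the same block called 15 of the list lower (6.34% of all genes).

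Of 15 measured genes that MYC is known to repress, 13 lay above 0 and 0 were called by edgeR. At an unadjusted p under 0.05, 6 were higher and 0 lower (9.43% and 6.49% of all genes). The median log2 difference was 0.62, with 0.63 and 0.68 within libraries 1 and 2. TGM2, a transglutaminase that is also a retinoid target, had 30.8 and 14.2 CPM with ATRA and 3.46 and 3.22 CPM with ethanol, a log2 difference of 2.75 ± 0.48 (adjusted p 0.0705, edgeR quasi-likelihood). The cell cycle inhibitor gene CDKN1A was at 0.52 ± 0.48. DESeq2 called 6 of these genes higher (877 of all 18900 genes) and limma-voom 0 (43 of all genes). The lists of targets were chosen with earlier results of these data known, so their direction is no independent evidence.

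Among 13 measured targets of MondoA and MLX and genes of glucose entry, 0 were called. Their median was 0.26, with 0.46 within libraries 1 and 0.06 within libraries 2. At an unadjusted p under 0.05, 3 were higher and 1 lower (9.43% and 6.49% of all genes). BHLHE40, a helix-loop-helix repressor, had 20.2 and 20.6 CPM with ATRA and 4.85 and 6.19 CPM with ethanol, a log2 difference of 1.88 ± 0.33 (adjusted p 0.0711, edgeR quasi-likelihood). SLC2A3, a neuronal glucose transporter, was at 1.93 ± 0.39. TXNIP and ARRDC4, the most direct readouts of MondoA, were at 0.26 ± 0.35 and 0.44 ± 0.47, and their groups overlapped.

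**Figure D4:**
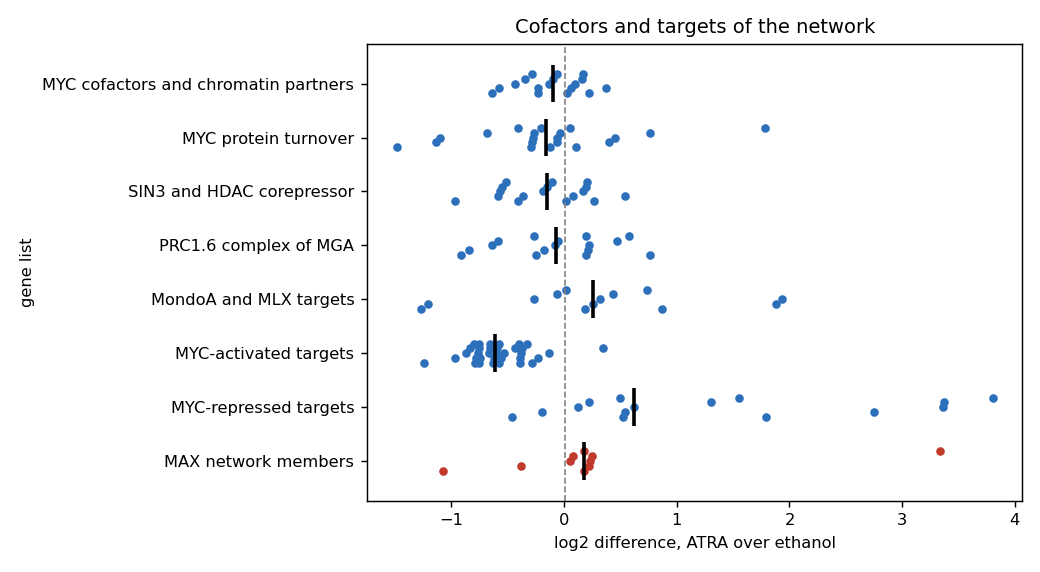
Log2 difference of ATRA over ethanol for each measured gene of the lists (points), with the median of each list (black bars) and the median of all genes tested (dashed line). Genes activated by MYC centre at -0.61 and genes repressed by MYC at 0.62, while the 10 members (red) centre at 0.18 with MYC at 3.33 and MXD3 at -1.07.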

How the data were processed

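The authors deposited raw read counts per gene symbol for 4 libraries, made with STAR 2.5.2b, featureCounts 1.5.1 and build hg19 per the submitters' processing notes. RNA was depleted of ribosomal RNA and libraries were directional, per the labels' protocols. The treatment of reads shared by genes, the annotation and the use of strand in counting were not given in the sources used here. Counts were fitted across all genes with edgeR 4.0.16 in R 4.3.3 (filterByExpr with minimum count 10, TMM, robust quasi-likelihood F test, group as the sole term, Benjamini-Hochberg over 18900 genes, threshold 0.05, two-sided). SE is the size of the log2 difference over the square root of F, and 95% intervals use the t distribution. CPM uses TMM-scaled library sizes, and differences within a library number use log2 CPM with prior count 2. DESeq2 1.42.0 and limma 3.58.1 were alternatives. GENCODE 29 and RefSeq (GRCh38, later than the authors' build) gave types, lengths and sequences; 63.8% of symbols had a type. Replicates differed far beyond sampling noise.

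Members and lists were chosen with earlier results of these data known. All members and paralogs are named, with the 2 genes of smallest p from each list (mean log2 CPM of at least 1), as none was called; a result for 1 gene that this rule names is not reported here, and other genes were added for their role or after their values were seen. Of the listed genes, PECAM1 was not analysed here. The procedure was tested on simulated data whose replicates differed less than these, so that test does not show its performance at the spread seen here.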

Additional observations from a re-analysis of the deposited data

How the results depend on the processing

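Precision is limited by 2 libraries per group and, for MYC, by 15 reads with ethanol. Under 13 alternatives MAX, MXD1, MXD3 and MLX kept their direction, as did MYC, MYCN and MYCL. Signs turned only where a library was left out. Over those fits MXI1 ranged from -0.046 (without ethanol 1) to 0.57, MXD4 from -0.29 (without ATRA 1) to 0.36, MNT from -0.15 (without ATRA 1; -0.01 without ethanol 2) to 0.50, MGA from -0.13 (without ethanol 1; -0.09 without ATRA 2) to 0.21, and MLXIP from -0.017 (without ATRA 2) to 0.34.

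Genes called higher and lower with ATRA were 103 and 29 in the reported fit, 180 and 74 with protein-coding genes alone, 1126 and 695 with no filter on low counts, 877 and 503 with DESeq2, 43 and 7 with limma-voom, and 547 to 838 and 231 to 604 without a library. DESeq2 size factors, upper quartile factors and library size alone stayed within 1.5 times. Members called were 0 higher and 0 lower; 1 higher (MYC) with no filter and with DESeq2, and 0 to 1 higher and 0 lower without a library. Of the genes of the 7 lists, 0 were called in either direction; 8 higher and 6 lower with no filter, 8 and 4 with DESeq2, and 2 to 7 and 1 to 2 without a library. The causes were not tested. The share of MYC in the network was 0.939% to 3.23% with ATRA and 0.0574% to 0.397% with ethanol with a library left out.

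The labels do not say that the number in a title pairs libraries, and deviations from the group means correlated at 0.632 between libraries of the same number. With the number as a replicate block, edgeR called 2325 genes higher and 1773 lower, 1 member higher (MYC, adjusted p 0.00145) and 1 lower (MXD3, 0.00923), the paralog MYCN lower (0.0291), and 13 and 32 genes of the lists, 21 of the latter activated by MYC. DESeq2 with the replicate block called 1528 and 1199 genes, the members MYC (0.000135) and MXD3 (0.0158), MYCN (0.00697), and 12 and 22 genes of the lists, 15 of the latter activated by MYC.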
